A study of Mus musculus with 12 samples.

Results

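The liver genes described here are 9 members of the Ugt2 and Ugt3 families, taken by name from the 52636 annotated genes that were counted in each library: Ugt2a3, Ugt2b1, Ugt2b5, Ugt2b34, Ugt2b35, Ugt2b36, Ugt2b37, Ugt2b38 and Ugt3a2. RNA-seq was performed on 12 livers of male C57Bl/6J mice at 16 weeks of age, 1 library per mouse. The 6 VDD-F1 mice were offspring of females fed a vitamin D deficient diet with added calcium gluconate before mating and through pregnancy, and the 6 VDS-F1 mice were offspring of females fed the matched vitamin D sufficient diet over the same time. All mothers received the sufficient diet after delivery, the sires received a control diet, and both groups of offspring received the sufficient diet from weaning, so the mice compared differed in the diet of the mother and not in their own diet at sampling. The litter of each mouse is not given in the sources used here. If litter mates are among the mice, the spread between mice understates the spread between litters.

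UDP-glucuronosyltransferases sit in the membrane of the endoplasmic reticulum and attach glucuronic acid, donated by UDP-glucuronic acid, to small lipophilic molecules. The products are more soluble in water and leave the hepatocyte by transporters into bile or blood. Enzymes of the Ugt2 family are known for the conjugation of steroids, bile acids, fatty acids and many drugs, and the liver is one of their main sites. Ugt3a2 belongs to a small related family whose enzymes take other sugars than glucuronic acid from their UDP donors.

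A second division of the mice was used beside the diet. The study's supplement records a liver weight for 7 of the 12 mice, 3 VDD-F1 (mice 4 to 6) and 4 VDS-F1 (mice 3 to 6), and none for the other 5, 3 VDD-F1 (mice 1 to 3) and 2 VDS-F1 (mice 1 and 2). The mice were matched to the libraries by group and number. Whether these sets were bred, dissected or sequenced apart is not given in the sources used here, so they are called the recorded and the unrecorded mice.

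Each library held 25897868 to 36403413 fragments, of which 14275793 to 20815066 were counted on genes in the sense direction. The recorded libraries had 14275793 to 20582910 and the unrecorded libraries 14784529 to 20815066 counted fragments. Of the fragments counted by strand, 92.7% to 95.8% were on the reverse strand. Of all fragments, 23.5% to 37.9% were unmapped, and 6.69% to 8.92% mapped to several places and were left out. VDS-F1 mouse 6 stood apart with 11.1% of its fragments mapped but not on an annotated exon in the sense direction. The 7 hepatocyte markers, among them Alb and Apoa1, summed to 77422 to 108609 CPM per library, and Umod, a kidney marker, had 0 counts in every library. CPM stands for the counts of a gene per 1000000 counts of its library, with library sizes scaled by edgeR's TMM method. In whole liver, fewer cells of a type and less RNA per cell cannot be told apart.

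Of the members, 8 lie together on chromosome 5, within 534 kb at chr5:86889767-87424203 in GRCm38, 7 of them on the minus strand and Ugt2b35 on the plus strand. Ugt3a2 (ENSMUSG00000049152.11) lies on chromosome 15, at chr15:9335550-9370955 on the plus strand. All 9 are protein-coding genes, with a coding sequence of 523 to 534 codons including the stop. Ugt2b5 and Ugt2b38 had 97.0% of the aligned coding bases in common, Ugt2b5 and Ugt2b37 94.7%, and Ugt2b37 and Ugt2b38 94.1%. Ugt2b5 had 88.4% in common with Ugt2b36 and 87.8% with Ugt2b35, and 73.0% with Ugt2b1. Ugt3a2 had 58.2% to 62.9% in common with the 8 others.

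This likeness bears on the counts, because fragments that align to several places were not counted. Of the stretches of 100 bases in the transcript of Ugt2b5, 24.7% were also found in a transcript of another gene, all of them in Ugt2b38. For Ugt2b38 the share was 24.2% and for Ugt2b37 1.06%, and it was under 1% for each of the other 6 members. With stretches of 50 bases the shares were 41.7% for Ugt2b5, 37.4% for Ugt2b38 and 18.3% for Ugt2b37. The levels of Ugt2b5, Ugt2b37 and Ugt2b38 are therefore uncertain, and the part of misplaced reads in them was not tested.

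The first 120 coding bases of these 3 genes, all within 1 coding exon, are shown because they carry the likeness that limits the counts. They are written in the direction of the gene from the GENCODE transcripts (GRCm38), and capitals mark a base that differs from Ugt2b5 at the same position.

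Ugt2b5 (chr5:87140187-87140306, minus strand): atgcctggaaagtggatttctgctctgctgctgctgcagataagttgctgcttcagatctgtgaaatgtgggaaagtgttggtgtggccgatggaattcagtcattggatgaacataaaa
Ugt2b37 (chr5:87254651-87254770, minus strand): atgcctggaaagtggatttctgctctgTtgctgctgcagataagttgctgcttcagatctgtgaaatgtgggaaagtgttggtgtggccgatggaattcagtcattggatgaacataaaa
Ugt2b38 (chr5:87424052-87424171, minus strand): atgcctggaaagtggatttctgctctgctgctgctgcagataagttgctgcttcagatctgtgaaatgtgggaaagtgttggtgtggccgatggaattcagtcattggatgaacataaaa

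Over these bases Ugt2b38 had 0 differences from Ugt2b5 and Ugt2b37 had 1, so a fragment that lies within them fits Ugt2b5 and Ugt2b38 equally well.

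RefSeq promoters in GRCm38.p6 were matched for 8 of the 9 members and compared over the 250 bases before the start. Ugt2b37 and Ugt2b38 shared 95.3% of their aligned bases, and Ugt2b5 shared 88.1% with Ugt2b37 and 88.3% with Ugt2b38. In a search of both strands, TATAAA (in 12.37% of all 32851 promoters of the same length), TTCNNNGAA (7.02%), the core of sites bound by STAT5, and AGGTCANAGGTCA (0.03348%), bound by HNF4A and other nuclear receptors, were not found in these windows.

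The members fell into 7 abundant and 2 scarce genes. On a scale of CPM per kilobase of exon, which allows different genes to be compared, Ugt2b5 was highest with a median of 288 over the 12 mice (159 to 373). Ugt2b1, an enzyme known for conjugating phenolic and steroid substrates, followed with a median of 176 (85.0 to 206), and Ugt2b36 with 157. The medians were 102 for Ugt2a3 (56.9 to 123), 91.5 for Ugt3a2 (63.5 to 102), 82.4 for Ugt2b34 (56.3 to 99.4) and 49.8 for Ugt2b35 (30.7 to 66.5). Ugt2b38 had a median of 2.55 (0.828 to 9.04) and Ugt2b37 of 0.521 (0.233 to 1.95).

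Neighbours in this order overlapped in their ranges over mice except for Ugt2b35 and Ugt2b38. Within a mouse, Ugt2b5 was above Ugt2b1 in 12 of 12 mice, Ugt2b36 was above Ugt2a3 in 12 and Ugt2b34 was above Ugt2b35 in 12. Ugt2b1 was above Ugt2b36 in 9 of 12 mice, Ugt2a3 above Ugt3a2 in 8 and Ugt3a2 above Ugt2b34 in 9, so these neighbours did not keep one order. Ugt2b5 made up 25.7% to 33.1% of the summed level of the 9 genes on this scale, and Ugt2b38 and Ugt2b37 together with their highest shares of 0.837% and 0.279% added little.

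**Figure D1:**
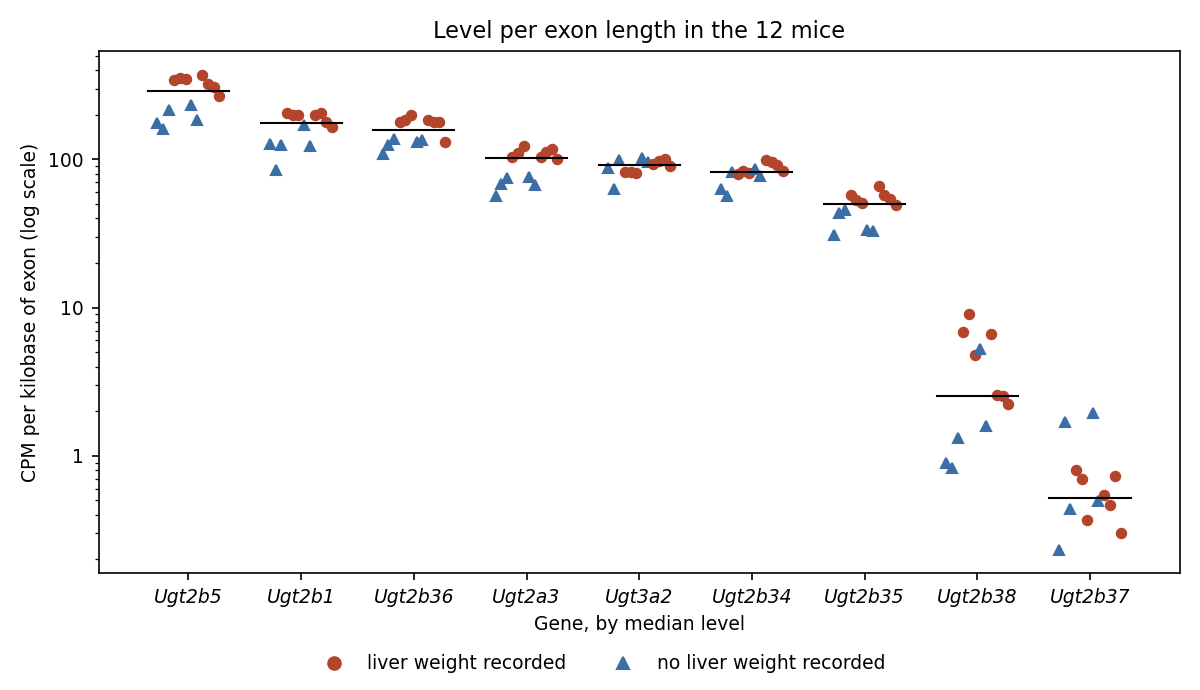
CPM per kilobase of exon (log axis) of the 9 genes in the 12 mice, with the median as a line; circles are mice with and triangles mice without a recorded liver weight. The 7 abundant genes lie between 30.7 and 373 and the 2 scarce genes between 0.233 and 9.04.

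The main question of the study is whether the diet of the mother leaves a difference in the adult liver. No member was called between VDD-F1 and VDS-F1 mice at an adjusted p under 0.05 with a log2-fold change beyond 1 in either direction, in edgeR's quasi-likelihood test over 12453 genes. The same test called 5 genes in all, 0.0402% of those tested, and 1972 genes had an unadjusted p under 0.05. DESeq2's Wald test and voom also called 0 members, while over all genes tested they called 253 (2.03%) and 252 (2.02%). Of the 9 members, 8 had a negative log2-fold change (lower in VDD-F1), with a median of -0.10 over the members and 0.00413 over all genes tested. The median of the members was -0.19 without VDD-F1 mouse 5 and 0.0096 without VDD-F1 mouse 1, and -0.057 with the set of mice in the fit. Adjusted p-values of the members from this test were 0.269 to 0.986. At an unadjusted p under 0.05 there were 2 members, Ugt2b34 and Ugt3a2, both lower in VDD-F1, where 6.29% of all genes tested were lower at that level. The count was 0 without VDD-F1 mouse 2 or VDS-F1 mouse 4 or 5, and 1 without VDD-F1 mouse 1, 4 or 6 or VDS-F1 mouse 1, 2 or 3.

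Ugt2b34 (ENSMUSG00000029260.15, chr5:86889767-86906937) had 271, 243, 352, 343, 358 and 350.4 CPM in VDD-F1 mice 1 to 6 and 373, 334, 429, 417, 394 and 361 CPM in VDS-F1 mice 1 to 6. The groups overlapped, since 4 VDD-F1 mice were above VDS-F1 mouse 2, and VDD-F1 mice 1 and 2 were the lowest of all. The means were 319.7 ± 49.5 and 385 ± 35.4 CPM (SD, n = 6 each). The log2-fold change was -0.27 with a standard error of 0.11 (edgeR, unadjusted p = 0.0316, adjusted p = 0.269). Within the recorded mice it was -0.19 and within the unrecorded mice -0.29.

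Ugt3a2 had 271, 197, 309, 256, 255 and 249.8 CPM in VDD-F1 mice 1 to 6 and 318, 299.6, 288, 303, 312 and 279 CPM in VDS-F1 mice 1 to 6. All VDD-F1 mice but mouse 3 were below the lowest VDS-F1 mouse. The means were 256 ± 36.2 and 300.0 ± 14.3 CPM (SD, n = 6 each). Its log2-fold change was -0.23 with a standard error of 0.10 (edgeR, unadjusted p = 0.0345, adjusted p = 0.276). It was -0.22 in the recorded mice, where all VDD-F1 mice were below all VDS-F1 mice, and -0.25 in the unrecorded mice, where mouse 3 of VDD-F1 lay between the VDS-F1 mice.

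For the other members the diet difference was smaller than its standard error. The log2-fold changes were -0.14 for Ugt2b1 (standard error 0.20), -0.11 for Ugt2a3 (0.19), -0.10 for Ugt2b37 (0.51), -0.08 for Ugt2b5 (0.23), -0.05 for Ugt2b35 (0.19) and -0.01 for Ugt2b36 (0.16). Ugt2b38 alone had a positive value, 0.19 (0.56). For Ugt2b5, Ugt2b35, Ugt2b36, Ugt2b37 and Ugt2b38 the sign changed when single mice were left out.

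**Figure D2:**
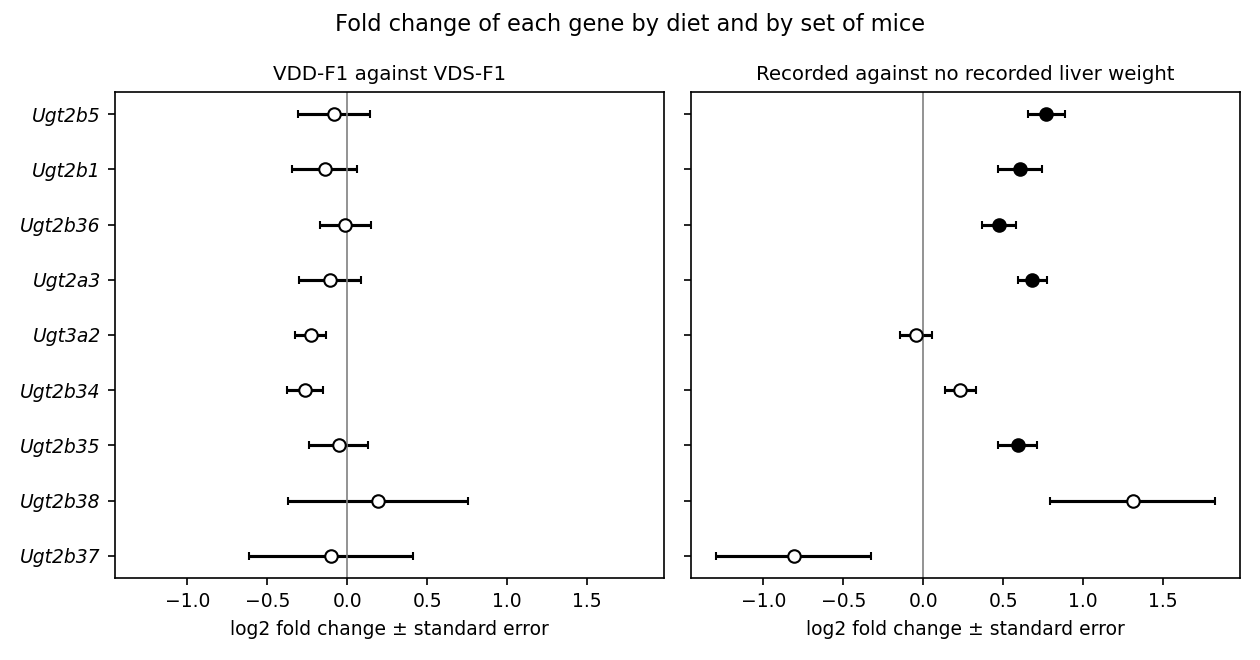
log2-fold change ± standard error of each gene from edgeR, by diet (left, negative is lower in VDD-F1) and by set of mice with diet in the fit (right, positive is higher in the recorded mice); filled points have an adjusted p under 0.05. All 9 points on the left are open, and 5 on the right, from 0.48 to 0.77, are filled.

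The members were also compared between the sets of mice. In a fit with diet and set, 5 of the 9 members were higher in the recorded than in the unrecorded mice at an adjusted p under 0.05, and 0.899% of the 12453 genes tested were higher by that rule. They were Ugt2a3, Ugt2b1, Ugt2b5, Ugt2b35 and Ugt2b36. The median log2-fold change between the sets was 0.59 over the 9 members and -0.01 over all genes tested. The recorded mice did not overlap the unrecorded mice for 3 members, Ugt2a3, Ugt2b5 and Ugt2b35, and 0.891% of all genes tested were higher without overlap.

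Ugt2a3 (ENSMUSG00000035780.2, chr5:87324972-87337195), whose enzyme conjugates bile acids, had 120.4, 145 and 157 CPM in the unrecorded VDD-F1 mice and 219, 235 and 259.8 CPM in the recorded ones. In VDS-F1 it had 159.7 and 143 CPM in the unrecorded mice and 220.1, 236, 250.4 and 213 CPM in the recorded ones. The highest unrecorded mouse was below the lowest recorded mouse, whatever the diet. The means were 145 ± 15.6 (SD, n = 5) and 233 ± 17.3 CPM (SD, n = 7). The log2-fold change was 0.68 with a standard error of 0.09 (edgeR, adjusted p = 0.00183). Within VDD-F1 alone it was 0.76 and within VDS-F1 alone 0.60.

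Ugt2b5 (ENSMUSG00000054630.7, chr5:87124960-87140318), the most abundant member, had 329, 296 and 399.9 CPM in the unrecorded and 636, 661 and 644 CPM in the recorded VDD-F1 mice. In VDS-F1 it had 434 and 344 CPM in the unrecorded and 694, 603, 573 and 495 CPM in the recorded mice. The sets did not overlap, and VDS-F1 mouse 6 was the lowest of the recorded mice. The means were 360.4 ± 55.7 (SD, n = 5) and 615 ± 65.6 CPM (SD, n = 7). Its log2-fold change was 0.77 with a standard error of 0.12 (edgeR, adjusted p = 0.0031). It was 0.92 within VDD-F1 and 0.61 within VDS-F1.

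Ugt2b35 (ENSMUSG00000035811.10, chr5:87000860-87013275), the member on the plus strand, had 103, 146 and 154 CPM in the unrecorded and 194, 179 and 170.3 CPM in the recorded VDD-F1 mice. The VDS-F1 values were 112 and 109.7 CPM in the unrecorded and 223, 193, 180.0 and 164 CPM in the recorded mice. The sets did not overlap, although VDD-F1 mouse 3, the highest unrecorded mouse, was close to VDS-F1 mouse 6, the lowest recorded one. The log2-fold change was 0.59 with a standard error of 0.12 (edgeR, adjusted p = 0.0209), 0.43 within VDD-F1 and 0.78 within VDS-F1.

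Ugt2b1 (ENSMUSG00000035836.2, chr5:86916638-86926530) had 327, 219 and 323 CPM in the unrecorded and 530.1, 516 and 516 CPM in the recorded VDD-F1 mice. In VDS-F1 it had 441 and 316 CPM in the unrecorded and 510.5, 526, 463 and 426 CPM in the recorded mice. The sets were apart in VDD-F1 and overlapped in VDS-F1, where mouse 1 was above mouse 6. Its log2-fold change was 0.61 with a standard error of 0.14 (edgeR, adjusted p = 0.0339), 0.85 within VDD-F1 and 0.35 within VDS-F1.

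Ugt2b36 (ENSMUSG00000070704.10, chr5:87065927-87092555) had 224, 257 and 280.2 CPM in the unrecorded and 366, 378 and 412 CPM in the recorded VDD-F1 mice. The VDS-F1 mice had 271 and 277 CPM without and 381, 368, 366 and 268 CPM with a recorded liver weight. VDS-F1 mouse 6 was the exception among the recorded mice and lay below both unrecorded VDS-F1 mice. The log2-fold change was 0.48 with a standard error of 0.11 (edgeR, adjusted p = 0.0327), 0.60 within VDD-F1 and 0.34 within VDS-F1.

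**Figure D3:**
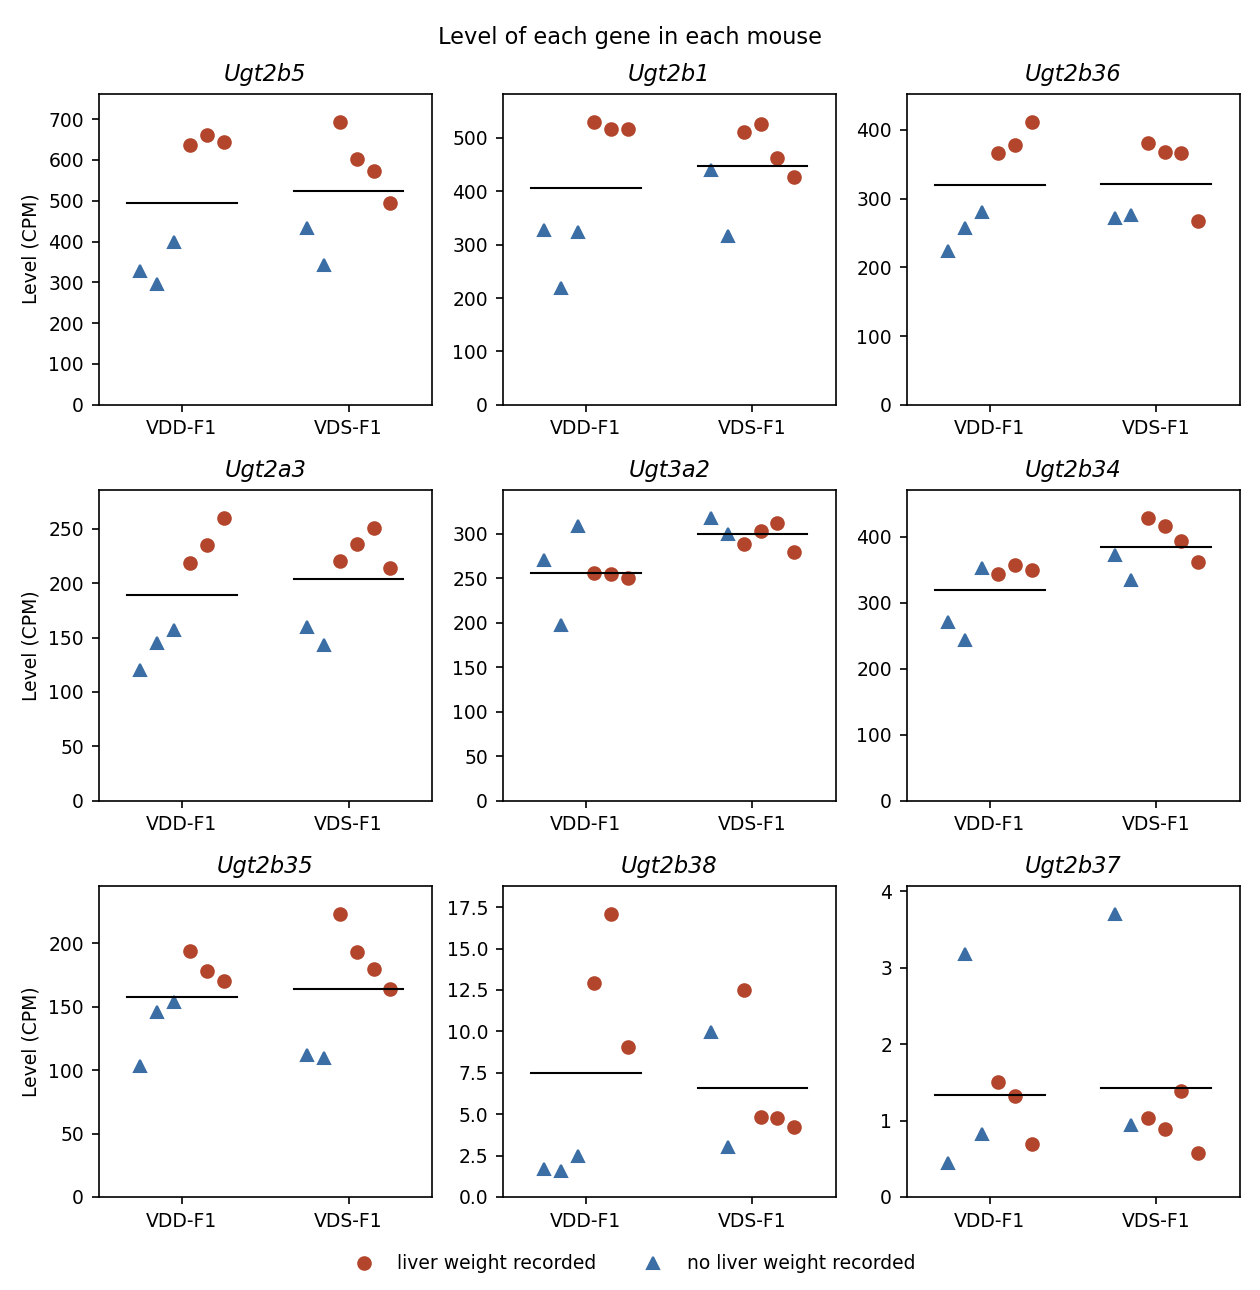
CPM of each gene in VDD-F1 and VDS-F1 mice, 1 point per mouse and the group mean as a line; circles are mice with and triangles mice without a recorded liver weight, and each panel has its own linear axis from 0. The triangles lie below the circles in both groups for Ugt2a3, Ugt2b5 and Ugt2b35, and are mixed with them for Ugt3a2.

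The calls between the sets were not equally firm. Without 1 mouse, between 2 and 5 members were called. The count was 2 without VDD-F1 mouse 4 or VDS-F1 mouse 2, and it was 3 without VDD-F1 mouse 1, 5 or 6 or without VDS-F1 mouse 3 or 4. Ugt2a3 was called in 17 of 18 other settings and Ugt2b5 in 16. The exceptions were fits on mice of 1 diet alone, with 6 mice each. Ugt2b35 was called in 14, Ugt2b1 in 8 and Ugt2b36 in 7. The log2-fold change of these 5 genes was positive in all 18 settings.

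The other 4 members were not called between the sets. Ugt2b34 had a log2-fold change of 0.23 with a standard error of 0.10 (edgeR, unadjusted p = 0.0327, adjusted p = 0.291), and Ugt3a2 of -0.04 with a standard error of 0.10 (adjusted p = 0.897). The Ugt3a2 means were 279 ± 49.0 CPM in the unrecorded (SD, n = 5) and 278 ± 24.8 CPM in the recorded mice (SD, n = 7). Ugt3a2, the member outside chromosome 5, was thus lower in VDD-F1 at an unadjusted p under 0.05 and did not pass the test between the sets. Whether its set difference differs from that of the other members was not tested.

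Of the scarce members, Ugt2b38 (ENSMUSG00000061906.5, chr5:87409942-87424203) had the higher level. It had 1.70, 1.57 and 2.49 CPM in the unrecorded and 12.9, 17.1 and 9.05 CPM in the recorded VDD-F1 mice, from 27 to 325 counts per library over all mice. The VDS-F1 mice had 9.97 and 3.01 CPM in the unrecorded and 12.5, 4.84, 4.79 and 4.22 CPM in the recorded set. The 3 lowest mice were thus the unrecorded VDD-F1 mice, and VDS-F1 mice 1 and 3 were high in each set of their group. The log2-fold change between the sets was 1.31 with a standard error of 0.51 (edgeR, unadjusted p = 0.0236, adjusted p = 0.253), 2.77 within VDD-F1 and 0.00864 within VDS-F1. Without VDS-F1 mouse 1 it was 2.16 and was called (adjusted p = 0.0189).

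The diet difference of Ugt2b38 had opposite signs in the sets, with a log2-fold change of 0.99 in the recorded mice (standard error 0.35, adjusted p = 0.0962) and -1.77 in the unrecorded mice (standard error 0.54, adjusted p = 0.9998), both from edgeR. The interaction of diet and set, the diet difference of the recorded mice minus that of the unrecorded mice, had a log2 value of 2.76 with a standard error of 0.69 (edgeR, unadjusted p = 0.00156, adjusted p = 0.202) and was not called. At an unadjusted p under 0.05, Ugt2b38 was the only one of the 9 members with such an interaction, and 9.01% of all genes tested had one. Of the genes tested, 0.0883% were called for the interaction at an adjusted p under 0.05, and none of the members was among them. DESeq2's Wald test called Ugt2b38 (adjusted p = 0.0118) and 1.11% of all genes tested. With edgeR the interaction was 1.65 without VDS-F1 mouse 1. The counts of Ugt2b38 were 0.518% to 2.58% of those of Ugt2b5 in the same mouse, and they were not a fixed share of it. The share was 0.518% to 0.622% in the unrecorded and 1.40% to 2.58% in the recorded VDD-F1 mice. In VDS-F1 the sets were not split in this way. The share was 2.30% and 0.876% in the unrecorded mice 1 and 2. It was 1.80%, 0.803%, 0.835% and 0.852% in the recorded VDS-F1 mice 3 to 6.

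Ugt2b37 (ENSMUSG00000057425.3, chr5:87240493-87254804) had 7 to 75 counts per library. It had 0.442, 3.18, 0.828, 1.51, 1.31 and 0.699 CPM in VDD-F1 mice 1 to 6 and 3.70, 0.944, 1.03, 0.884, 1.39 and 0.572 CPM in VDS-F1 mice 1 to 6. VDD-F1 mouse 2 and VDS-F1 mouse 1, both unrecorded, were above the others. The log2-fold change between the sets was -0.81 with a standard error of 0.48 (edgeR, adjusted p = 0.506), and it was -0.25 without VDS-F1 mouse 1 and -0.42 without VDD-F1 mouse 2.

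**Figure D4:**
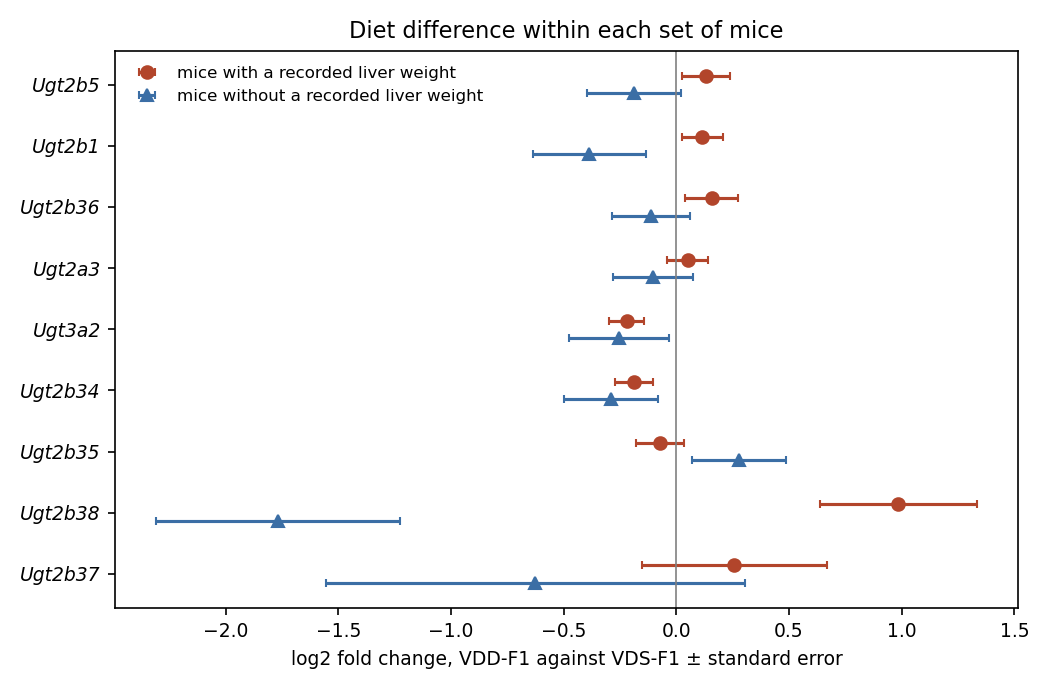
log2-fold change of VDD-F1 against VDS-F1 ± standard error within the recorded (circles) and the unrecorded mice (triangles), from separate edgeR fits; negative is lower in VDD-F1. Ugt2b34 and Ugt3a2 are negative in both sets, and Ugt2b38 has 0.99 in one and -1.77 in the other.

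Across the 12 libraries the Pearson correlation of log2 CPM between 2 members was -0.23 to 0.94 over the 36 pairs of the 9 members, with a median of 0.65. The lowest was that of Ugt2b37 and Ugt3a2 and the highest that of Ugt2b1 and Ugt2b5. These correlations rest on the same 12 libraries, which fall into the 2 sets. Among all genes tested, the gene most alike was Aox3 for Ugt2a3 (r = 0.96), Ugt2b5 for Ugt2b1 (0.94), Keg1 for Ugt2b5 (0.97), Cyp3a11 for Ugt2b35 (0.94), Pa2g4 for Ugt2b36 (0.93) and C8b for Ugt2b38 (0.91). It was Hnf4aos, an RNA transcribed antisense to Hnf4a, for Ugt2b34 (0.92), Snx17 for Ugt2b37 (0.92) and Hsd3b5 for Ugt3a2 (0.96).

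These partners were chosen for their likeness to the members over the same libraries, which largely fixes their differences between the groups, so those are given as a description with no test. Cyp3a11, a cytochrome P450 that oxidizes steroids and drugs, had a log2-fold change of 2.30 between the sets, from 594 to 1953 CPM in the unrecorded and from 3788 to 6324 CPM in the recorded mice. Keg1 had 1.12 and Aox3, an aldehyde oxidase, 0.84, all from the same edgeR fit. Hsd3b5, a steroid dehydrogenase of male mouse liver, had -0.22 between the sets and -1.73 between the diets.

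The other genes of glucuronidation were read from 5 lists. Over all genes tested, 15.8% had an unadjusted p under 0.05 by diet and 13.9% by set with edgeR, and DESeq2's Wald test called 4.67% by set. Of 13 other Ugt genes, 6 passed the filter on low counts, and edgeR called none by diet or by set, where 3 by diet and 4 by set had an unadjusted p under 0.05. DESeq2's Wald test called Ugt1a9 and Ugt3a1 higher in the recorded mice and none by diet, and voom, run for diet alone, called none. Ugt1a1, the enzyme that conjugates bilirubin, had a diet log2-fold change of -0.72 with a standard error of 0.16 (edgeR, unadjusted p = 0.000424, adjusted p = 0.0855), at 106 to 217 CPM in VDD-F1 and 191 to 283 CPM in VDS-F1 mice. Ugt1a9, which conjugates phenols, had 1.13 (adjusted p = 0.138) and Ugt1a6b -0.36 (adjusted p = 0.243). The Ugt1a genes have their last exons in common and fragments that fall on several genes are not counted, so their values are uncertain. Ugt2a1 and Ugt2a2 had 0 counts in every library, but they overlap on the same strand of chromosome 5 and fragments on the exons they share are not counted, so these zeros set no limit on their level.

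The list on the making, transport or use of UDP-glucuronic acid held 6 genes. All were tested and none was called by diet with edgeR, DESeq2 or voom. With edgeR 1 had an unadjusted p under 0.05, Pgm2 (log2-fold change 0.47, adjusted p = 0.248), followed by Ugdh (0.42, adjusted p = 0.362) and Pgm1 (-0.13, adjusted p = 0.558). Between the sets, edgeR called 1 higher and 1 lower in the recorded mice, where 0.899% of all genes tested were called higher and 1.56% lower. Ugdh, the dehydrogenase that makes UDP-glucuronic acid, had 58.5 to 132 CPM in the unrecorded and 119.8 to 187 CPM in the recorded mice, with a log2-fold change of 0.76 and a standard error of 0.11 (edgeR, adjusted p = 0.00214). Ugp2, which makes UDP-glucose in the step before, had 239 to 367 CPM in the unrecorded and 188 to 282 CPM in the recorded mice, with a log2-fold change of -0.50 and a standard error of 0.12 (edgeR, adjusted p = 0.0487). Both overlapped between the sets. Within VDD-F1 and within VDS-F1 every recorded mouse had more Ugdh and less Ugp2 than every unrecorded one. The share of all genes that separate in this way was not determined.

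Of the 4 exporters of glucuronides, edgeR called none by diet or by set, where 1 by diet and 2 by set had an unadjusted p under 0.05. DESeq2 called none by diet and Abcc3 by set, and voom none by diet. Abcc4 had the smallest p by diet (log2-fold change 1.08, adjusted p = 0.167), before Abcg2 (-0.25, adjusted p = 0.377) and Abcc3 (-0.40, adjusted p = 0.516). Abcc3, which exports glucuronides to the blood, had a set log2-fold change of 0.85 with an SE of 0.22 (edgeR, adjusted p = 0.0599). Of the 2 enzymes that hydrolyse glucuronides, Abhd10 had 0.60 by diet (adjusted p = 0.172) and Gusb 0.04 (adjusted p = 0.872), and neither was called by diet or by set with any tool run. At an unadjusted p under 0.05 there was 1 of the 2 by each contrast with edgeR.

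Of the 9 regulators, 8 were tested and none was called by diet with edgeR or DESeq2, and 2 had an unadjusted p under 0.05 with edgeR, both lower in VDD-F1. Nr1i3, which encodes the xenobiotic receptor CAR, had a log2-fold change of -0.83 (adjusted p = 0.273), Hnf4a, a hepatocyte factor, -0.29 (adjusted p = 0.301) and Nr1h4, the bile acid receptor FXR, -0.33 (adjusted p = 0.37) by diet. With voom and sample quality weights Nr1i3 had -1.29 (adjusted p = 0.0183) and was called. Between the sets Ahr, the aryl hydrocarbon receptor, was called lower in the recorded mice, with a log2-fold change of -0.59 and an adjusted p of 0.039.

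**Figure D5:**
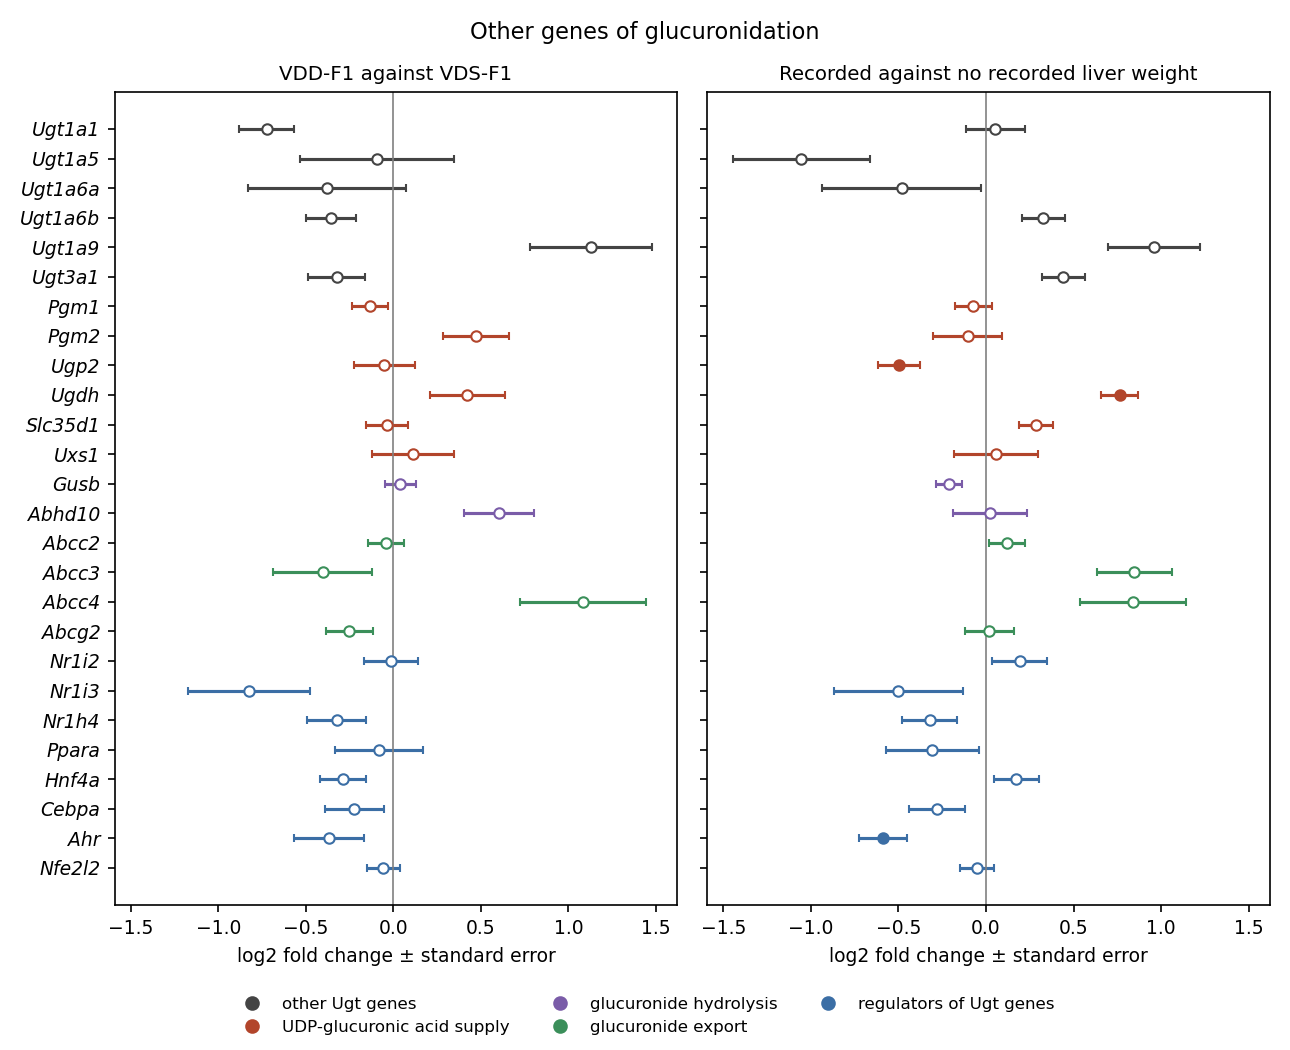
log2-fold change ± standard error of the tested genes of 5 lists, by diet (left, negative is lower in VDD-F1) and by set with diet in the fit (right, positive is higher in the recorded mice); filled points have an adjusted p under 0.05. No point is filled on the left, and Ugdh, Ugp2 and Ahr are filled on the right.

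Some markers of cell types and of zones of the lobule were also called between the sets, where 0.899% of all genes tested were called higher and 1.56% lower in the recorded mice, and their part in the differences of the Ugt genes was not tested. Of 6 markers of hepatocytes near the portal vein, 2 were called higher in the recorded mice by edgeR, Cyp2f2 (log2-fold change 0.75, adjusted p = 0.00602) and Hal (0.83, adjusted p = 0.0339). DESeq2's Wald test called these and Ass1 (0.38, adjusted p = 0.0304), and the list summed to 11023 to 13213 CPM in the unrecorded and 13201 to 16114 CPM in the recorded mice. Of 6 markers of hepatocytes near the central vein, 1 was called lower, Glul (-1.29, adjusted p = 0.0499), while Cyp1a2 had 0.34 (adjusted p = 0.469). The list summed to 2907 to 8778 CPM in the unrecorded and 3148 to 9139 CPM in the recorded mice. Within the recorded mice it was 3148 to 3706 CPM in VDD-F1 and 7175 to 9139 CPM in VDS-F1. Within the unrecorded mice it was 2907 to 8778 CPM in VDD-F1 and 7471 to 8324 CPM in VDS-F1. Of 3 erythroid markers, 2 were called lower, Hbb-bs (-1.70, adjusted p = 0.00671) and Hba-a1 (-1.51, adjusted p = 0.0161). The third, Alas2, had 0.35 (adjusted p = 0.324). The erythroid list summed to 459.7 to 1288 CPM in the unrecorded and 219 to 440.1 CPM in the recorded mice. Of 7 markers of kidney, gut or pancreas, 1 was tested, Fabp2, and it was called lower (-0.92, adjusted p = 0.0019).

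None of the 7 hepatocyte, 5 sinusoidal endothelial, 5 stellate, 6 Kupffer and 5 cholangiocyte markers was called between the sets, nor were the 2 of 5 lymphocyte markers that were tested, by edgeR. Of these 30 tested markers, 7 had an unadjusted p under 0.05 between the sets, and DESeq2's Wald test called 2, Apoa1 lower and Kdr higher in the recorded mice. Hepatocyte markers summed to 91476 to 108609 CPM in the unrecorded and 77422 to 106921 CPM in the recorded mice. The sums were 188 to 234 and 207 to 263 CPM for sinusoidal endothelial, 274 to 471 and 261 to 350.0 CPM for stellate, and 118 to 241 and 79.8 to 180.1 CPM for Kupffer markers. They were 23.9 to 115 and 27.6 to 71.7 CPM for cholangiocyte and 0.301 to 7.78 and 1.502 to 3.12 CPM for lymphocyte markers. By diet, 1 marker of these lists was called, Cyp1a2 near the central vein, lower in VDD-F1 (log2-fold change -1.35, adjusted p = 0.0269). The same edgeR fit called 0.0402% of all genes tested by diet. At an unadjusted p under 0.05 (15.8% of all genes), 3 cholangiocyte, 1 stellate and 1 portal marker were higher in VDD-F1. Lower were 2 central, 2 sinusoidal endothelial and 2 Kupffer markers. Hepatocyte markers summed to 102458 to 106921 CPM in recorded VDD-F1 and 77422 to 86688 CPM in recorded VDS-F1 mice. In the unrecorded mice the sums were 91476 to 108609 and 97125 to 98042 CPM.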

How the data were processed

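Total RNA of the left lateral lobe was sequenced from 12 male mice (VDD-F1 and VDS-F1, n = 6 each) after removal of ribosomal RNA. Per the study's methods, reads were quality checked, adapters were removed and STAR aligned the rest to mm10 (GRCm38, GENCODE M15; the version of STAR is not given in the sources used here). The files the authors deposited hold raw counts, the number of fragments on each gene, once without regard to strand and once for each strand, with no normalization and no pooling. The reverse-strand counts were used. Gene names and positions came from GENCODE M21, which matched 52403 of 52636 genes. RefSeq promoters and GENCODE transcripts were used for sequences.

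Genes whose counts averaged 12 or more were tested with edgeR 4.0.16 in R 4.3.3 (TMM, quasi-likelihood, Benjamini-Hochberg over all genes tested). The diet calls need an adjusted p under 0.05 and a log2-fold change beyond 1, and the set and interaction calls an adjusted p under 0.05. The study's methods name DESeq2, which was run as an alternative (1.42.0), as was voom in limma 3.58.1. A separate fit used diet and set, and another their interaction. Standard errors were computed from the fold change and the F statistic. Level tables and figures were made in Python 3.11.15 with pandas 2.3.3, NumPy 2.4.6, Biopython 1.88 and matplotlib 3.10.9. The 7 abundant members had 1635 to 13810 counts per library, so counting error is small for them, and the 2 scarce members are imprecise.

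Replicate numbers name different mice. No 2 libraries of the same diet group differed by less than sampling noise. Named were all 9 members, the called genes of the glucuronidation lists or the 3 with the smallest p by diet where none was called, and for each member the gene with the highest Pearson correlation. The members and lists were chosen with earlier results of these data known. Other alternatives were DESeq2's size factors, the counts without strand, other filters, the set as a covariate, each set alone, a replicate block and each mouse left out. The procedure was run on simulated data whose log2-fold changes were larger than those of the members called between the sets. It therefore does not show how well differences of that size are found, and its outcome is not given here. Histology and qRT-PCR were not analysed here. One regulator of the lists is not reported here.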

Additional observations from a re-analysis of the deposited data

Results flagged for a closer look

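Over 27 groups of 4 or 6 mice (each member in VDD-F1, in VDS-F1 and in the recorded VDS-F1 mice), 3 mice lay far from the others of their group by Dixon's criterion, where chance alone flags about 1 in 20. Ugt2b36 had 268 CPM in VDS-F1 mouse 6, the lowest of the 4 recorded VDS-F1 mice. This is also the library with the largest share of fragments mapped but not on an annotated exon in the sense direction. Ugt2b38 had 12.5 CPM in VDS-F1 mouse 3, the highest of the same 4 mice. Ugt2b37 had 3.70 CPM in VDS-F1 mouse 1, the highest of the 6 VDS-F1 mice, from 75 counts.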

How the results depend on the processing

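No member was called by diet under any alternative run. With DESeq2's Wald test, voom, DESeq2's size factors, the counts without strand, no filter and a total count of 12, Ugt2b34 and Ugt3a2 were the 2 members with an unadjusted p under 0.05, where 13% to 22.8% of all genes tested had one, and the median log2-fold change stayed between -0.11 and -0.07. The count was 3 in the recorded mice (25.6% of all genes) and 1 in the unrecorded mice (3.77%), and 0 to 2 with 1 mouse left out (12.4% to 18.9%). The median was 0.12 in the recorded and -0.25 in the unrecorded mice.

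The diet log2-fold changes near 0 changed sign. With the set as a covariate they were 0.070 for Ugt2b35, 0.045 for Ugt2b36 and -0.057 for Ugt2b38. In the recorded mice they were 0.050 for Ugt2a3, 0.12 for Ugt2b1, 0.13 for Ugt2b5, 0.16 for Ugt2b36 and 0.26 for Ugt2b37, and in the unrecorded mice 0.28 for Ugt2b35 and -1.77 for Ugt2b38. With 1 mouse left out they ranged from -0.19 to 0.028 for Ugt2b5, from -0.15 to 0.054 for Ugt2b35, from -0.097 to 0.073 for Ugt2b36, from -0.59 to 0.47 for Ugt2b37 and from -0.25 to 0.47 for Ugt2b38. The set difference of Ugt3a2 ranged from -0.12 to 0.018. The cause was not tested.

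Between the sets, the 5 members were called with DESeq2 (4.67% of all genes in either direction, against 2.46% with edgeR), its size factors and the counts without strand (2.4% and 2.45%), 6 without the filter (2.24%), and 2 to 5 with 1 mouse left out (1.15% to 4.03%). In fits added after the data were seen, 2 were called in VDS-F1 mice alone, Ugt2a3 and Ugt2b35 (1.65% of all genes), and 1 in VDD-F1 mice alone, Ugt2b38 (0.285%), so none of the 5 was called there. Each of these fits holds 6 mice. For the interaction, DESeq2's Wald test and the fit with no filter called 1 member, Ugt2b38 (1.11% and 1.49% of all genes), and the other alternatives 0 (0.0241% to 2.68%).

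With a replicate block, 0 members were called by diet, 2 had an unadjusted p under 0.05, the median was -0.12, and Ugt2b38 changed sign to -0.12. The same numbers do not pair the mice: the correlation of deviations was -0.076 to 0.103 over 6 pairs, and 0 mice correlated best with their own number.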
